A study of Homo sapiens with 8 samples.

Results

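Antisense-named RNA genes carry the name of a neighbouring gene followed by AS and a number, because they are transcribed from the strand opposite to that gene. The peaks described here are those whose deposited gene name ends in that way and does not begin with LINC, after repeated rows were removed. They numbered 32880 of 1843422 peaks and fell in 727 of 19767 named genes. Their reference is the set of sense genes named before the dash, of which 709 names exist and 649 had a peak. Peaks of LINC-named genes, another class of long non-coding RNA, served as a second comparison.

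The study mapped RNA contacts of PTBP1 and IGF2BP2 by eCLIP in A172, an established human glioma cell line. There were 2 PTBP1 immunoprecipitations (IP), 2 IGF2BP2 IPs and 2 paired inputs for each protein, and all cells carried the same treatment: 4-thiouridine at 500 µM for 3 h, then 2 exposures to 365 nm light at 400 mJ/cm2. RNA was taken from the membrane between 55 and 130 kDa for PTBP1 and between 65 and 140 kDa for IGF2BP2, so the proteins differ in the window that was cut as well as in the antibody. The inputs, 2% of each lysate, enter only through the IP-over-input values of the IP peaks. The labels say that each experiment was run 2 times in this line but do not say whether the cultures were separate, so p-values measure only the spread between these libraries, which may be technical.

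PTBP1 binds pyrimidine-rich RNA and is best known as a repressor of exon inclusion in the nucleus. IGF2BP2 binds mRNAs through KH domains and is known for effects on their stability and translation. Antisense transcripts can act on their neighbours in cis or as free RNAs, and a read can be assigned to one member of such a pair only by its strand. For that reason the strand of each peak was compared with the strand of the gene whose name it carries.

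The lists held 600615 and 538802 peaks for PTBP1 replicates 1 and 2, and 362700 and 341305 peaks for IGF2BP2 replicates 1 and 2. Median recovered IP reads per peak were 12 and 9 for PTBP1, against 4 and 4 for IGF2BP2, so single IGF2BP2 peaks rest on fewer reads. Of the 727 antisense names, 685 matched a RefSeq gene (GRCh38.p14) by symbol and 40 by an older name. Of those 40, 27 are now named as divergent transcripts (DT). RefSeq gave a strand for 544 of them. In all 488 pairs with a strand for both genes, the genes lay on opposite strands, and 389 of these pairs overlapped. The pairs with overlapping starts numbered 182, with a median shared stretch of 920 nt. A further 98 antisense genes lay inside the sense gene, 91 pairs overlapped at their ends, and 18 sense genes lay inside the antisense gene. Pairs that did not overlap mostly had starts facing away from each other, with 90 such pairs and a median gap of 144 nt. Of peaks with a RefSeq position for their gene, 97.6% lay inside the gene's RefSeq extent.

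The stretches of sequence below lie under regions found in both replicates on the antisense gene's own strand, near one of its RefSeq start sites. They are shown because a peak there carries the antisense name and the antisense strand beside a known start site. The regions shown for HOXB-AS3, ZEB1-AS1, FGD5-AS1, SPRY4-AS1 and VIM-AS1 also had a peak over them on the opposite strand. A gene can have several start sites, so each stretch is placed both against the start site of its window and against the outermost end of the gene's RefSeq extent. Sequences are RefSeq start windows of GRCh38.p14, read 5′ to 3′ on the gene's strand, and give at most the first 30 bases of the longest stretch under a region. Capitals mark TCTT, a motif of PTBP1, and GGAC or CATT, motifs described for IGF2BP proteins, all on the strand shown.
HOXB-AS3, PTBP1, chr17:48595911-48595940, plus strand, from 47 bases before a start site (-47), base 5492 of the gene's extent: tctgaggctccTCTTCTTacttctaggtag
HOXB-AS3, IGF2BP2, chr17:48595934-48595963, plus strand, from 24 bases before the same start site (-24), base 5515 of the extent: taggtagtatgtgctccttccagtggcttt
ZEB1-AS1, PTBP1, chr10:31319251-31319280, minus strand, from 185 bases before a start site (-185), base 1168 of the extent: gcgggttcgcctgctttctgcgcttacacc
FGD5-AS1, IGF2BP2, chr3:14947702-14947731, minus strand, from 226 bases before a start site (-226), base 711 of the extent: cggggtggcggGGACgggcccgggggcgcc
SPRY4-AS1, PTBP1, chr5:142325298-142325327, plus strand, from base 6 after a start site, base 6 of the extent: atggagggcggcggcgactgctgcagctgg
VIM-AS1, PTBP1, chr10:17229943-17229972, minus strand, from base 14 after a start site, base 14 of the extent: gcatgatgtcctcggccaggttgtcgcgct
PCBP1-AS1, IGF2BP2, chr2:70086906-70086925, minus strand, from base 22 after a start site, base 1284 of the extent: tgcatggatcccccacccca
OIP5-AS1, PTBP1, chr15:41284014-41284039, plus strand, from base 25 after a start site, base 1318 of the extent: cgaagatggcggagtaaggcgtgccg

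The HOXB-AS3 stretch under the PTBP1 region holds a pyrimidine run with a pair of overlapping TCTT matches, and the stretch shown for IGF2BP2 begins downstream of that run. Across 15 such stretches from 10 named genes, TCTT occurred in 1, GGAC in 1 and CATT in 0. Cutting all 35116 RefSeq start windows into pieces of 30 nt put TCTT in 10.1%, GGAC in 10.3% and CATT in 8.41% of the pieces. In the full windows, which run from 250 nt before to 50 nt after the start, TCTT on the gene's strand occurred in 61.5% of 628 antisense windows, against 61.7% of all windows. None of the 15 regions behind the stretches met the bar for enrichment used below. The highest log2 of IP over input was -0.0449 and -1.13 in replicates 1 and 2 for the SPRY4-AS1 stretch shown. It was -0.285 and 0.246 for the FGD5-AS1 stretch shown. The other stretches shown had a positive log2 in both replicates. These log2 values include the library's offset and are not ratios of raw reads.

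Within the lists, antisense-named peaks made up a small and steady part. They numbered 11309 and 9856 in PTBP1 replicates, which is 1.88% and 1.83% of the lists, against 6019 and 5696 in IGF2BP2 replicates, which is 1.66% and 1.67%. Both PTBP1 shares lay above both IGF2BP2 shares, with means of 1.86% ± 0.0379 for PTBP1 and 1.66% ± 0.00664 for IGF2BP2 (SD, n = 2 each). With 2 libraries against 2, a two-sided exact permutation test of the shares returned p = 0.333, which is the smallest p this design allows. Genes with a peak numbered 656 and 624 in PTBP1 replicates, against 541 and 500 in IGF2BP2 replicates, and 425 genes had a peak in all 4 libraries. Per kb of gene, the median antisense gene held 0.387 and 0.310 peaks in PTBP1 replicates, while the median sense gene held 0.428 and 0.356. In IGF2BP2 replicates the medians were 0.132 and 0.115 peaks per kb for antisense genes, against 0.183 and 0.186 for sense genes. Peak number follows RNA level and depth as well as binding, and these cannot be told apart in the lists.

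Many antisense-named peaks had another peak of the same list lying over them on the opposite strand, here called mirrored (an overlap of at least 1 nt). The mirrored share was 51.2% and 52.5% of antisense-named peaks in PTBP1 replicates, against 12.4% and 12.4% of sense peaks. In IGF2BP2 replicates it was 52.3% and 52.8% of antisense-named peaks, against 11.8% and 11.9% of sense peaks. LINC-named peaks had 16.4%, 16.5%, 14.8% and 14.7%, in the same order of libraries. The antisense share exceeded the sense share in 4 of 4 libraries, by 40.1 percentage points on average. The two-sided exact sign-flip permutation test over the 4 libraries gave p = 0.125, the smallest p it allows. Between the proteins the antisense share averaged 51.9% ± 0.952 for PTBP1 and 52.5% ± 0.357 for IGF2BP2 (SD, n = 2 each; exact permutation p = 0.667).

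The share was close to this without the leading genes. Leaving out IPO9-AS1, the gene with the most peaks, left 49.5% and 50.8% of antisense-named peaks mirrored in PTBP1 replicates, and 50.4% and 50.9% in IGF2BP2 replicates. Gene by gene, the median mirrored share was 53.4% over 476 antisense genes with at least 10 peaks (quartiles 17.8% and 73.4%), against 8.18% over 586 sense genes. The spread among antisense genes was wide: 81 of them had no mirrored peak, and 65 had more than 80% mirrored. In the mirrored pairs, the partner on the other strand carried the same antisense name in 99.9%, 100.0%, 99.9% and 99.9% of cases. Both strands of a mirrored place thus mostly carried 1 antisense name in these lists.

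**Figure D1:**
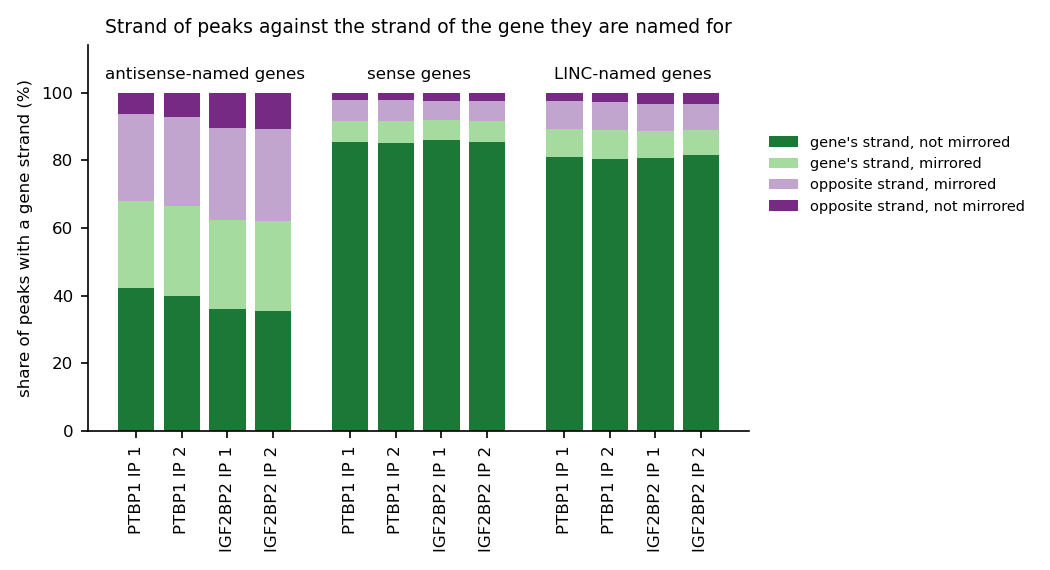
Stacked bars give the share (%) of peaks with a RefSeq strand for their gene that lie on the gene's strand or on the opposite strand, with or without a mirrored partner, for each IP library and for antisense-named, sense and LINC-named genes. Opposite-strand peaks (both purple classes) make up 32.0% to 37.9% of antisense-named peaks and 8.15% to 8.42% of sense peaks.

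Where RefSeq gave the gene's strand and the peak lay inside the gene, 32.0% and 33.6% of antisense-named peaks lay on the strand opposite to the gene in PTBP1 replicates, against 8.34% and 8.42% of sense peaks. In IGF2BP2 replicates 37.6% and 37.9% of antisense-named peaks were on the opposite strand, against 8.15% and 8.40% of sense peaks. The difference was positive in 4 of 4 libraries and averaged 26.9 percentage points, or 15.8 points without mirrored peaks (exact sign-flip p = 0.125 in both). Both IGF2BP2 values lay above both PTBP1 values (exact permutation p = 0.333), and among peaks with a deposited −log10 p of at least 3 the difference turned, to 2.50 points higher in PTBP1. Peaks without a mirrored partner lay mostly on the gene's strand: 86.9% and 85.0% of unmirrored antisense-named peaks in PTBP1 replicates and 77.6% and 77.0% in IGF2BP2 replicates were on it. For unmirrored sense peaks these shares were 97.6% and 97.6% in PTBP1 replicates, and 97.4% and 97.2% in IGF2BP2 replicates. Thus 42.3% and 39.8% of antisense-named peaks in PTBP1 replicates, and 36.0% and 35.5% in IGF2BP2 replicates, were both unmirrored and on the strand of the antisense gene.

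Most antisense-named peaks on the opposite strand lay inside a RefSeq gene of that strand. The named sense gene spanned 55.3% and 55.2% of them in PTBP1 replicates, and 57.1% and 54.7% in IGF2BP2 replicates. Another gene of that strand spanned 25.4%, 25.2%, 25.0% and 28.1%. The rest, 17.3% to 19.6%, lay in no gene to which RefSeq gave that strand. The clearest case of another gene was IPO9-AS1, which starts beside IPO9, an importin gene, and runs through NAV1, a gene for a neuron navigator protein. NAV1 spanned 222 and 205 of the opposite-strand IPO9-AS1 peaks in PTBP1 replicates, and 159 and 179 in IGF2BP2 replicates. HDAC2-AS2 likewise ran over HS3ST5, a heparan sulfate sulfotransferase gene, which spanned 44 and 39 opposite-strand peaks in PTBP1 replicates and 11 and 11 in IGF2BP2 replicates.

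In the stretches shared by the 389 overlapping pairs, a peak carried the antisense name more often than the sense name. These pairs were drawn only from antisense genes with an antisense-named peak somewhere in the lists. Pairs whose peaks all carried the sense name could thus be missed, which tilts the shares toward the antisense name. The antisense name was given to 66.3% and 65.6% of peaks there in PTBP1 replicates, and to 65.8% and 63.5% in IGF2BP2 replicates. The sense name was given to 33.0%, 33.5%, 32.9% and 35.4% of them. Pairs differed: of 248 pairs with at least 10 peaks in the shared stretch, 63 had more than 90% named antisense, 25 had more than 90% named sense, and 160 lay between. All 18 peaks in the stretch shared by IPO9-AS1 and IPO9 carried the antisense name, and so did 101 of 103 peaks shared by PXN-AS1 and PXN, the gene of the focal adhesion adaptor paxillin.

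The mirrored share differed with the arrangement of the genes. Antisense genes lying inside the sense gene had the highest shares, 73.8% and 73.5% in PTBP1 replicates and 68.9% and 70.8% in IGF2BP2 replicates. Pairs with overlapping ends had 55.2%, 56.5%, 58.0% and 58.9%, and pairs with overlapping starts had 54.9%, 58.2%, 57.4% and 57.2%. Pairs that lay apart with starts facing away had 28.7% and 28.4% in PTBP1 replicates and 25.7% and 28.0% in IGF2BP2 replicates. This class holds SRGAP2-AS1, which RefSeq places 84805635 nt from SRGAP2. It supplied 310 of 1235 and 287 of 1060 peaks of the class in PTBP1 replicates, and 172 of 622 and 149 of 564 in IGF2BP2 replicates. Of these SRGAP2-AS1 peaks 161, 143, 58 and 62 were mirrored, so 1 gene that is no neighbour weighs on the class. The order of these classes was not tested, since genes are not replicates of an arrangement. Places were also sorted by the strands of the RefSeq genes over them. Only genes with a given strand were counted, which 544 of the 727 antisense names had. Places with such genes on both strands held 42.0% and 43.1% of antisense-named peaks in PTBP1 replicates and 46.0% and 46.9% in IGF2BP2 replicates, against 6.20% to 6.29% of all peaks. At these places 73.8%, 74.4%, 72.5% and 72.2% of antisense-named peaks were mirrored, against 56.4%, 56.6%, 54.1% and 55.0% of all peaks. Where such genes lay on 1 strand, 35.5% to 36.8% of antisense-named peaks were mirrored, against 7.78% to 8.44% of all peaks. This class can hold places where a gene without a given strand lies on the other strand. Where no gene with a given strand lay, 32.6% to 33.7% were mirrored, against 7.79% to 8.86% of all peaks. The antisense values lay above those of all peaks in each kind of place in 4 of 4 libraries. The part of genes without a given strand in this was not tested.

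**Figure D2:**
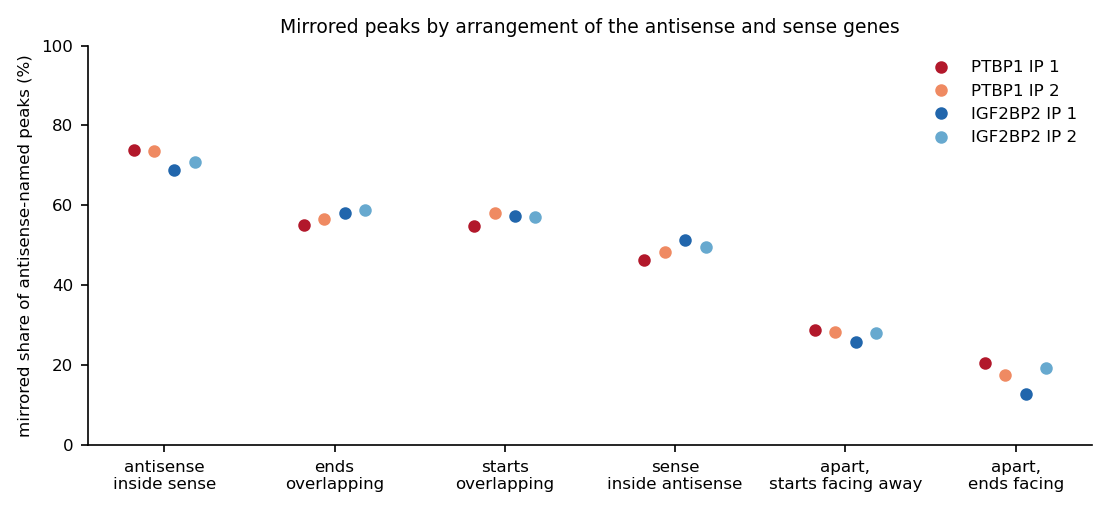
Each point is the mirrored share (%) of antisense-named peaks in 1 IP library, for 6 arrangements of the antisense and sense genes in RefSeq. Genes inside the sense gene lie highest (68.9% to 73.8%) and pairs apart with ends facing lie lowest (12.9% to 20.6%).

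Many mirrored peaks were not only in the same place but had the same values. In PTBP1 replicates 36.8% and 38.4% of mirrored antisense-named peaks had a partner with an identical deposited log2 ratio and an identical deposited −log10 p, against 43.1% and 44.1% of mirrored sense peaks. In IGF2BP2 replicates the shares were 54.1% and 52.5% of mirrored antisense-named peaks, against 51.9% and 56.1% of mirrored sense peaks. Such partners were offset by a median of 14, 14, 12 and 13 nt. Identical values on both strands occurred in both sets. What produced them was not tested.

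Antisense-named peaks were annotated only to introns and to exons without coding sequence or UTR. The intron share was 87.5% and 87.3% in PTBP1 replicates and 86.9% and 87.1% in IGF2BP2 replicates, against 84.7% and 83.9%, and 83.8% and 83.6%, of sense peaks. It was higher in 4 of 4 libraries, by 3.23 percentage points on average, or 13.6 points among peaks with a −log10 p of at least 3 (exact sign-flip p = 0.125 in both). Sense peaks also fell in coding sequence, with 11.2%, 11.7%, 8.80% and 8.82%, a class that antisense-named genes do not have here. Median peak length was 43 and 41 nt in PTBP1 replicates and 22 and 21 nt in IGF2BP2 replicates, against 42, 40, 21 and 21 nt for sense peaks. Without mirrored peaks the difference in median length was -4.5 nt, so it turned in direction.

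Enrichment over input was rare among antisense-named PTBP1 peaks and somewhat more frequent among IGF2BP2 peaks, near the shares of all peaks. A peak was called enriched when its log2 IP over input, put on 1 scale for the library, was at least 3 and its −log10 p at least 3. Of antisense-named peaks 3.19% and 2.80% were enriched in PTBP1 replicates, against 3.25% and 3.15% of sense peaks and 2.92% and 2.82% of all peaks. In IGF2BP2 replicates 8.76% and 8.60% were enriched, against 8.90% and 9.12% of sense peaks and 9.20% and 9.36% of all peaks. The difference from sense peaks was negative in 4 of 4 libraries and averaged -0.268 percentage points, or -1.31 points without mirrored peaks (exact sign-flip p = 0.125 in both). Sense peaks include coding and UTR peaks, and among intron peaks alone the direction turned in 4 of 4 libraries. There 3.36% and 2.90% of antisense-named peaks were enriched in PTBP1 replicates, against 2.93% and 2.87% of sense and 2.43% and 2.37% of all intron peaks. In IGF2BP2 replicates it was 8.74% and 8.87%, against 8.36% and 8.60% of sense and 8.69% and 8.82% of all intron peaks. Mirrored antisense-named peaks were enriched in 4.27% and 3.63% of cases in PTBP1 replicates and 10.1% and 9.45% in IGF2BP2 replicates, against 2.06%, 1.88%, 7.24% and 7.66% of unmirrored ones.

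Joining overlapping peaks of both replicates gave 5650 PTBP1 regions in 522 antisense genes and 2743 IGF2BP2 regions in 389 antisense genes. Enriched in both replicates were 132 PTBP1 regions in 46 genes, or 2.34%, against 2.31% of all PTBP1 regions. For IGF2BP2 there were 167 in 65 genes, or 6.09%, against 5.96% of all IGF2BP2 regions. These shares are near the background. Most of the enriched antisense regions had a region on the other strand: 70.5% of the enriched PTBP1 regions and 71.3% of the enriched IGF2BP2 regions were mirrored, against 14.4% and 16.7% of enriched sense regions. Most antisense regions were mirrored whether enriched or not, 55.0% for PTBP1 and 61.5% for IGF2BP2, against 12.4% and 12.7% of all sense regions. Enriched regions of both proteins occurred in 14 genes, which is 30.4% of the PTBP1 genes and 21.5% of the IGF2BP2 genes, against 44.3% and 32.0% over all genes with an enriched region. At the level of sites, 5 of the 132 PTBP1 regions (3.79%) and 6 of the 167 IGF2BP2 regions (3.59%) overlapped an enriched region of the other protein in an antisense gene. Over all enriched regions these shares were 2.99% for PTBP1 and 2.30% for IGF2BP2.

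For PTBP1, the enriched regions gathered in IPO9-AS1 with 25, SRGAP2-AS1 with 16 and PLCG1-AS1 with 13, followed by PRC1-AS1 and ALOX12-AS1 with 4 each. For IGF2BP2 they gathered in PXN-AS1 with 15 and IPO9-AS1 with 14, followed by GRPEL2-AS1, AADACL2-AS1 and ZKSCAN7-AS1 with 6 each. Regions were counted on each strand, so a place enriched on both strands enters these counts on both. An enriched region lay on the other strand over 80 of the 132 PTBP1 regions (60.6%) and 112 of the 167 IGF2BP2 regions (67.1%). The strongest PTBP1 region lay at chr1:226152335-226152397 within ACBD3-AS1, with 99 IP reads and 1 input read in replicate 1 and 74 IP reads and 1 input read in replicate 2. It was on the minus strand, the strand of ACBD3, a Golgi protein gene, while ACBD3-AS1 is on the plus strand, and it was not mirrored. A region of NIFK-AS1, antisense to a nucleolar protein gene, had 183 IP and 5 input reads in replicate 1 and 128 IP and 1 input reads in replicate 2, on both strands alike. In PLCG1-AS1 a region at chr20:41123195-41123406 had 91 IP and 2 input reads, and 63 IP and 1 input reads. That gene runs opposite to TOP1, the gene of a DNA topoisomerase, which spans the region on the other strand. The strongest IGF2BP2 region lay in an intron of PXN-AS1 at chr12:120211616-120211643 on the plus strand, and its mirror at chr12:120211632-120211659 had the same log2 values, 6.63 and 6.28 in replicates 1 and 2. Unmirrored and strong were a region of OVCH1-AS1 at chr12:29392699-29392793, with 97 IP and 5 input reads in replicate 1 and 83 IP and 5 input reads in replicate 2, and a region of WDR11-AS1 at chr10:120833691-120833720 on the gene's own strand, with 32 IP reads and 1 input read in replicate 1 and 9 IP reads and 1 input read in replicate 2. These regions were picked by their rank after the values were seen.

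Peaks were spread over many antisense genes. The 10 genes with the most peaks held 18.7% of the antisense-named peaks, the median gene held 19 peaks over the 4 libraries, 67 genes held 50% of all, and 29 genes had 1 peak. IPO9-AS1 led with 470 and 438 peaks in PTBP1 replicates, against 320 and 360 in IGF2BP2 replicates. Scaled to 10000 peaks of the list, this was 7.83 and 8.13 for PTBP1 and 8.82 and 10.5 for IGF2BP2. IPO9 itself had 38 and 39 peaks for PTBP1 and 33 and 31 for IGF2BP2. On the strand of IPO9-AS1 lay 245 and 230 of its PTBP1 peaks and 159 and 179 of its IGF2BP2 peaks, so about as many were on either strand, and 86.6% were mirrored.

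SRGAP2-AS1 followed with 310 and 287 peaks in PTBP1 replicates, against 172 and 149 in IGF2BP2 replicates. SRGAP2 has near-identical copies on chromosome 1, and 23.7% of the SRGAP2-AS1 peaks lay inside its RefSeq extent, so its counts are uncertain. NUTM2B-AS1, also in a gene family with close copies, had 160 and 165 peaks for PTBP1 and 80 and 73 for IGF2BP2 (log2 difference 0.39 ± 0.11 SE, limma adjusted p = 0.0431). Its counts may be uncertain because of those copies. Unlike those of SRGAP2-AS1, its peaks lay inside its RefSeq extent, 70.9% on its own strand and 29.1% on the opposite strand. The NUTM2B-AS1 call was lost without PTBP1 replicate 2 (adjusted p = 0.269), and its direction turned among peaks with a deposited −log10 p of at least 3 (-1.34, adjusted p = 0.032). RNF213-AS1, antisense to a large ubiquitin ligase gene, had 177 and 159 peaks for PTBP1 and 110 and 114 for IGF2BP2. Per 10000 listed peaks this was 2.95 and 2.95 for PTBP1 and 3.03 and 3.34 for IGF2BP2. GAS6-AS1, antisense to the gene of a ligand of TAM receptor kinases, had 129 and 129 against 83 and 97, or 2.15 and 2.39 against 2.29 and 2.84 per 10000. LIPE-AS1, which runs across the gene of hormone-sensitive lipase, had 129 and 139 against 75 and 56, or 2.15 and 2.58 against 2.07 and 1.64 per 10000. Of these genes, IPO9-AS1, SRGAP2-AS1, RNF213-AS1, GAS6-AS1 and LIPE-AS1 did not pass the limma test of peak density between the proteins (adjusted p between 0.0696 and 0.419).

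**Figure D3:**
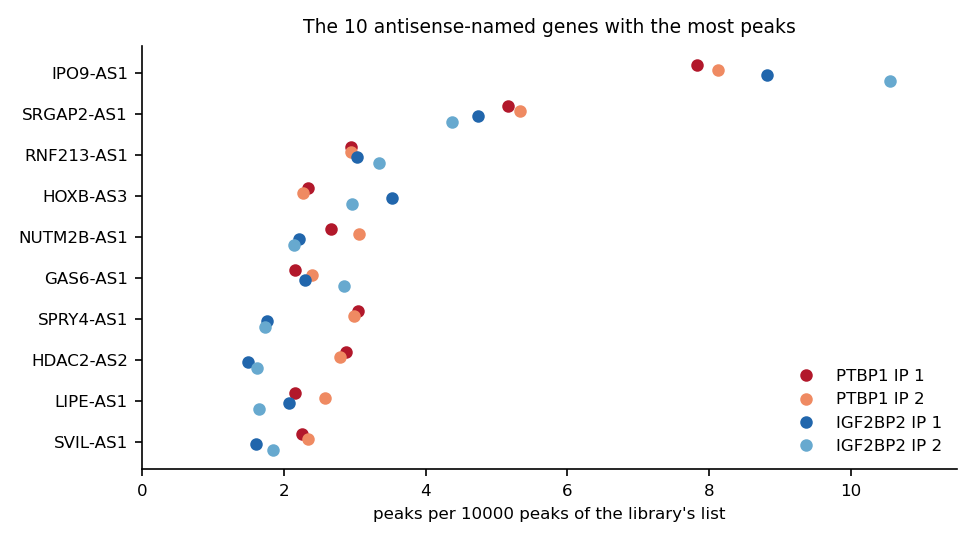
Points give the number of peaks per 10000 peaks of the list in each of the 4 IP libraries for the 10 antisense-named genes with the most peaks. IPO9-AS1 lies at 7.83 to 10.5, and the 8 genes from RNF213-AS1 down lie below 4 in every library.

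The question which antisense genes differed between the proteins was answered with peak densities, the log2 of peaks per 10000 peaks of the list after adding 0.5 to each count. The limma fit took in 15145 genes, those with a total of 10 or more peaks in the 4 lists. Of 476 antisense genes tested, 95 passed an adjusted p of 0.05, or 20%, against 29.2% of 586 sense genes and 25.0% of all genes. Denser in PTBP1 were 61 (12.8%, against 12.7% of all genes), and denser in IGF2BP2 were 34 (7.14%, against 12.3% of all genes). The median difference, PTBP1 minus IGF2BP2, was 0.15 for antisense genes, 0.06 for sense genes and -0.01 for all genes. Antisense genes tested had a median of 34.5 peaks over the 4 libraries, against 81 for sense genes and 55 for all genes, and the part of this depth in the counts was not tested. Without mirrored peaks 348 antisense genes could be tested and 54 passed, or 15.5%, against 24.7% of all genes. With a pseudocount of 2, 57 were denser in PTBP1 and 55 in IGF2BP2 (12% and 11.6%, against 13.3% and 16.6% of all genes). Leaving out PTBP1 replicate 1 or 2 gave 57 and 59 calls (12% and 12.4%, against 15% and 16.3% of all genes). Leaving out IGF2BP2 replicate 1 or 2 gave 177 and 175 calls (37.2% and 36.8%, against 42.2% and 40.3% of all genes).

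The largest differences toward PTBP1 were in genes with no IGF2BP2 peak. CYYR1-AS1 had 19 and 9 peaks in PTBP1 replicates, against 0 and 0 in IGF2BP2 replicates, which is at least 5.77-fold higher when the floor is set at 3 peaks over both IGF2BP2 lists. LBX1-AS1, beside a homeobox gene, had 11 and 13 against 0 and 0, at least 4.94-fold higher. PHKA2-AS1, antisense to a phosphorylase kinase subunit gene, had 14 and 10 against 0 and 0, at least 4.94-fold higher, while PHKA2 had 56 and 44 peaks for PTBP1 and 23 and 15 for IGF2BP2. ENTPD3-AS1 had 11 and 12 against 0 and 0, at least 4.74-fold higher. TRG-AS1, in the T cell receptor gamma locus, had 11 and 11 against 0 and 0, at least 4.53-fold higher, and 59.1% of its peaks lay on the opposite strand. These 5 genes reached the minimum of 10 peaks only through PTBP1 and were picked for their difference, so the counts are a description and no test is read from them. Their fitted differences, 3.83 to 4.07, depend on the pseudocount and are no measure of fold.

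Toward IGF2BP2 the counts were smaller, and the 5 genes named reached the minimum of 10 peaks only through IGF2BP2, so they too are a description. FTCD-AS1 had 0 and 0 peaks in PTBP1 replicates, against 8 and 4 in IGF2BP2 replicates, at least 6.47-fold lower in PTBP1 with the floor of 3 peaks over both PTBP1 lists. FTCD itself had 19 and 16 peaks for PTBP1 and 3 and 13 for IGF2BP2. BCDIN3D-AS1, antisense to an RNA methyltransferase gene, had 2 and 0 against 8 and 9. FER1L6-AS2 had 0 and 1 against 6 and 6. HPN-AS1, antisense to the gene of the protease hepsin, had 2 and 2 against 12 and 7. LHFPL3-AS2 had 3 and 2 against 7 and 9.

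**Figure D4:**
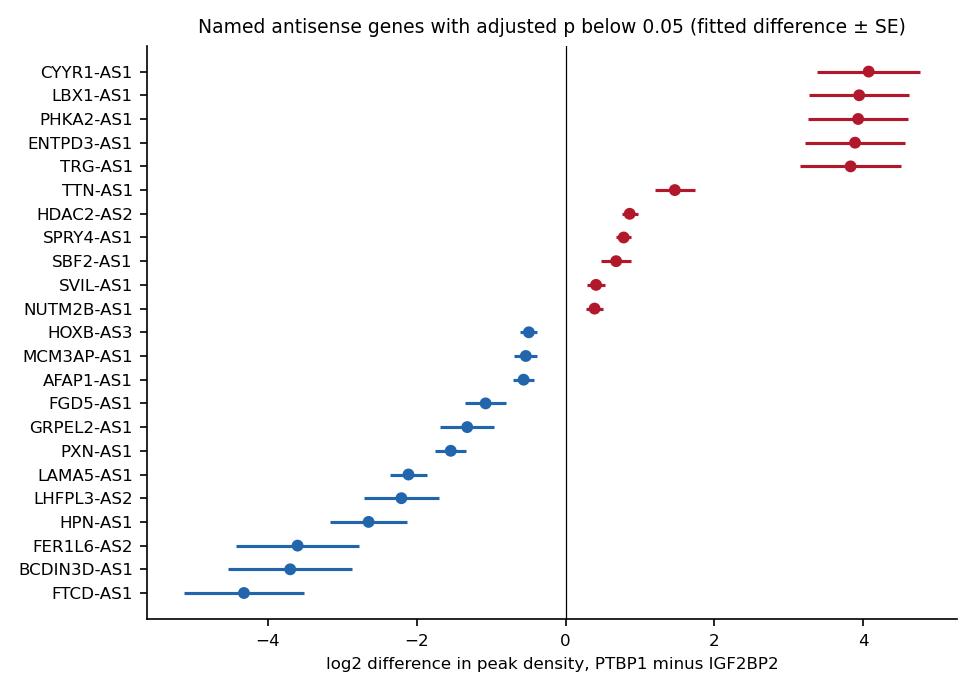
Points are log2 differences in peak density (PTBP1 minus IGF2BP2) from the limma fit, with the standard error as a line, for the 23 named antisense genes that passed an adjusted p of 0.05. Values run from 4.07 in CYYR1-AS1 to -4.32 in FTCD-AS1, and 11 genes lie to the right of 0; the 5 highest and the 5 lowest reached the peak minimum through 1 protein only.

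Among the genes with many peaks, SPRY4-AS1 had 95.5% of its peaks on its own strand. It starts near SPRY4, the gene of an inhibitor of receptor tyrosine kinase signalling, and points away from it with a gap of 271 nt. It had 183 and 161 peaks in PTBP1 replicates, against 64 and 59 in IGF2BP2 replicates. Its density was higher for PTBP1 by 0.78 ± 0.10 SE on the log2 scale (limma adjusted p = 0.0034). On the gene's strand and unmirrored were 171 and 148 of the PTBP1 peaks and 59 and 50 of the IGF2BP2 peaks. SPRY4 went the other way, with 34 and 27 peaks for PTBP1 and 43 and 36 for IGF2BP2 (-1.06 ± 0.18 SE, adjusted p = 0.0072). Among peaks with a deposited −log10 p of at least 3, however, SPRY4-AS1 was at -1.40 (adjusted p = 0.056), against a median of 0.28 for all genes under that limit.

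HDAC2-AS2, whose start overlaps that of the histone deacetylase gene HDAC2, had 173 and 150 peaks for PTBP1, against 54 and 55 for IGF2BP2 (0.86 ± 0.11 SE, limma adjusted p = 0.0032). Without mirrored peaks its difference was -0.11 (adjusted p = 0.669). HOXB-AS3, a transcript of the HOXB cluster, had 140 and 122 against 128 and 101, a density difference of -0.49 ± 0.12 SE (adjusted p = 0.024). It lost the call without mirrored peaks (adjusted p = 0.104), turned to 0.80 among peaks with a −log10 p of at least 3 (adjusted p = 0.041), and 82.5% of its peaks were mirrored. SVIL-AS1 had 135 and 126 against 58 and 63 (0.41 ± 0.12 SE, adjusted p = 0.047), in the direction of SVIL, the gene of the actin-binding protein supervillin, with 174 and 155 against 58 and 47 (0.95 ± 0.12 SE, adjusted p = 0.0031). The SVIL-AS1 call was lost without either PTBP1 replicate or without IGF2BP2 replicate 1 (adjusted p = 0.121, 0.183 and 0.0701). PXN-AS1 had 23 and 16 against 36 and 34 (-1.54 ± 0.21 SE, adjusted p = 0.0040). Without mirrored peaks it was at 0.43 (adjusted p = 0.507). GRPEL2-AS1 had 8 and 7 against 10 and 14 (-1.32 ± 0.36 SE, limma adjusted p = 0.0388), lost without either PTBP1 replicate (adjusted p = 0.162 and 0.164).

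A list of 50 antisense RNAs known from the literature had 37 members with a peak, and 27 could be tested. Denser in PTBP1 were 3 (11.1%, against 12.7% of all genes), denser in IGF2BP2 were 5 (18.5%, against 12.3% of all genes), and 19 did not pass, with a median difference of -0.16 against -0.01 for all genes. SPRY4-AS1 was among those denser in PTBP1. SBF2-AS1 had 79 and 58 peaks for PTBP1, against 23 and 29 for IGF2BP2 (0.68 ± 0.20 SE, limma adjusted p = 0.0468), lost without PTBP1 replicate 1 (adjusted p = 0.222). The third was TTN-AS1, which overlaps the titin gene and had 37 and 29 peaks for PTBP1, against 8 and 6 for IGF2BP2 (1.47 ± 0.27 SE, limma adjusted p = 0.0105). Of TTN-AS1 peaks 90% were mirrored, and the call was lost without either PTBP1 replicate (adjusted p = 0.110 and 0.0548). LAMA5-AS1, inside the gene of a laminin chain, had 11 and 14 against 34 and 34 (-2.11 ± 0.25 SE, adjusted p = 0.0027), and LAMA5 had 106 and 96 against 141 and 156 (-1.25 ± 0.11 SE, adjusted p = 0.0015). With unmirrored peaks of the gene's own strand alone, LAMA5-AS1 was at 0.48 (adjusted p = 0.642). AFAP1-AS1, antisense to an actin-binding adaptor gene, had 87 and 72 against 67 and 78 (-0.56 ± 0.14 SE, adjusted p = 0.031), lost without PTBP1 replicate 2 (adjusted p = 0.0793), without mirrored peaks (adjusted p = 0.365) and with peaks of at least 10 IP reads (adjusted p = 0.807). FGD5-AS1 had 16 and 11 against 19 and 16 (-1.07 ± 0.28 SE, adjusted p = 0.031), lost without either PTBP1 replicate (adjusted p = 0.0698 and 0.180). MCM3AP-AS1 had 45 and 38 against 38 and 36 (-0.53 ± 0.16 SE, adjusted p = 0.046), lost without either PTBP1 replicate (adjusted p = 0.144 and 0.210) and with TMM scaling (adjusted p = 0.0620), and its difference was 0.22 without mirrored peaks. The remaining call was HOXB-AS3.

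Several of the best-known antisense RNAs had few peaks or did not differ beyond the threshold. OIP5-AS1, known as a binder of the microRNA miR-7, had 10 and 8 peaks for PTBP1, against 18 and 7 for IGF2BP2 (-1.01 ± 0.46 SE, limma adjusted p = 0.143), and none of them was mirrored. PCBP1-AS1 had 48 and 34 against 23 and 17, all on its own strand with none mirrored (0.32 ± 0.22 SE, adjusted p = 0.315). ZEB1-AS1, whose start overlaps that of a transcription factor gene of the epithelial-mesenchymal transition, had 22 and 19 against 22 and 19 peaks (-0.69 ± 0.22 SE, adjusted p = 0.057), and 81.7% were mirrored. VIM-AS1, antisense to the gene of the intermediate filament vimentin, had 21 and 21 against 12 and 12 (0.09 ± 0.25 SE, adjusted p = 0.816), with 83.3% in exons and 89.4% mirrored. CDKN2B-AS1, a regulator of the INK4 locus, had 2 and 2 against 0 and 0 peaks, too few to test. Among the 37 genes, 3 (8.11%) had a region enriched in both PTBP1 replicates and 5 (13.5%) had one enriched in both IGF2BP2 replicates, against 14% and 19.4% of all 19767 genes.

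Peaks lay closest together near the start of the antisense gene, on both strands. In the first kb, antisense-named peaks on the gene's own strand stood at 186 and 190 peaks per Mb per 100000 listed peaks in PTBP1 replicates and at 225 and 211 in IGF2BP2 replicates. Between 5 and 20 kb the values were 52.8, 49.6, 44.4 and 44.7. On the opposite strand they were 99.7 and 108 for PTBP1 and 148 and 140 for IGF2BP2 in the first kb, and 22.9, 23.6, 24.9 and 25.3 between 5 and 20 kb. Sense genes had 275, 291, 371 and 377 on their own strand and 85.6, 87.1, 98.8 and 104 on the opposite strand in the first kb. Between 5 and 20 kb the opposite strand of sense genes stood at 9.81 and 9.45 for PTBP1 and 9.77 and 10.8 for IGF2BP2, below the antisense genes in 4 of 4 libraries.

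**Figure D5:**
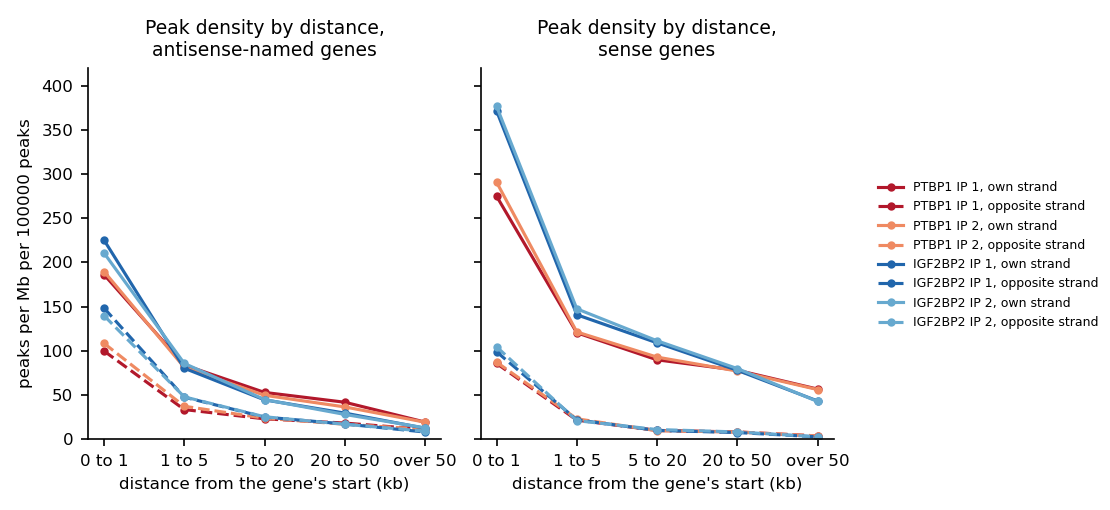
Lines give peaks per Mb of gene per 100000 listed peaks against the distance from the gene's start (kb), for peaks on the gene's own strand (solid) and on the opposite strand (dashed) in each IP library, with antisense-named genes on the left and sense genes on the right. Own-strand density in the first kb is 186 to 225 in antisense-named genes and 275 to 377 in sense genes.

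Start windows were also counted, with 628 windows for 544 antisense genes. A PTBP1 region found in both replicates lay on the gene's own strand in 14.2% of antisense windows, against 22.9% of sense windows and 12.4% of all windows. For IGF2BP2 the shares were 8.92% of antisense windows, 13.5% of sense windows and 7.71% of all windows. On the opposite strand the order changed, with 21.2% of antisense windows, 14.3% of sense windows and 6.58% of all windows for PTBP1, and 17.7%, 8.29% and 3.85% for IGF2BP2. Antisense windows thus held a region on the opposite strand more often than on their own, and sense windows the reverse. These shares were not tested, since windows of 1 list are not replicates.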

How the data were processed

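The data are 4 deposited peak lists, 1 for each IP library. Reads were aligned with HISAT2 to hg38, per the submitters' processing notes; the peak caller is not given in the sources used here. The authors deposited, per the file headers, a −log10 p-value, a column headed Count, a gene and a transcript region per peak. The column headed Count holds, from its values, the log2 of IP over input reads with an offset that differs by chromosome, so each offset was replaced by the library's median offset. IP and input reads were recovered from the deposited log2 and −log10 p-value (p within 1%) for 98.4% to 99.6% of eligible peaks, with Python 3.11.15 and scipy 1.17.1. Eligible peaks had a deposited log2 that was not negative and a positive −log10 p below 400. Densities were fitted with limma 3.58.1 (trend, no block) in R 4.3.3 and adjusted by Benjamini-Hochberg over 15145 genes. Gene positions came from RefSeq, and strands only where its start windows give one. Named genes are the 10 with the most peaks, the 5 largest differences in each direction among those passing without overlap, the 5 with most enriched regions per protein, the known list, and their sense genes. The members and lists were chosen with earlier results of these data known. Scripts were tested on simulated data. Values given for 4 libraries in a row are PTBP1 replicates 1 and 2, then IGF2BP2 replicates 1 and 2. Input libraries were not analysed here on their own.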

Additional observations from a re-analysis of the deposited data

Results flagged for a closer look

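The share of peaks found again in the other replicate differed in direction between the proteins, and it was noticed because every library of one protein moved one way and every library of the other the opposite way. In PTBP1 replicates 56.4% and 64.2% of antisense-named peaks were found again, against 59.3% and 65.4% of sense peaks. In IGF2BP2 replicates 49.4% and 52.6% were found again, against 48.1% and 51.4% of sense peaks. The antisense-minus-sense difference averaged -2.05 percentage points for PTBP1 and 1.28 for IGF2BP2, so PTBP1 stood -3.33 points from IGF2BP2. The two-sided exact permutation test of this difference gave p = 0.333, the smallest p that 2 libraries against 2 allow. Without mirrored peaks the directions were no longer opposite: the antisense-minus-sense difference was -12.3 and -10.2 points in PTBP1 replicates and -6.99 and -7.12 points in IGF2BP2 replicates.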

How the results depend on the processing

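Of 95 antisense genes called, 61 were denser in PTBP1 and 34 in IGF2BP2. The count was 143 with nucleotides covered in place of peaks (30%, against 36.5% of all genes), of which 58 were denser in IGF2BP2. With peaks of a deposited −log10 p of at least 3 it was 51 of 105 tested (48.6%, against 44.3% of all genes), split 34 and 17. Without mirrored peaks it was 54 of 348 (15.5%, against 24.7% of all genes), split 36 and 18. Opposite-strand peaks were left out too in an alternative chosen after seeing the data. That gave 53 of 313 (16.9%, against 25.8% of all genes), split 39 and 14. With a pseudocount of 2 it was 112 (23.5%, against 29.8% of all genes), with 55 denser in IGF2BP2 (11.6%, against 16.6% of all genes). Leaving out each library in turn gave counts of 57 to 177, with 42 to 114 denser in PTBP1 and 15 to 63 in IGF2BP2; the higher counts came without an IGF2BP2 replicate. The median over all genes moved by over 0.1 with peaks of a −log10 p of at least 3 (to 0.28) and with peaks of at least 10 IP reads (to 0.65, added after seeing the data), and directions there are to be read against it. TMM scaling left 94 calls (65 and 29), or 19.7%, against 24.4% of all genes. No filter on peaks per gene left 79, or 10.9%, against 15.3% of all genes.

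Replicate numbers were not treated as pairs in the main fit. The deviations of same-numbered libraries had r = -0.0016 over 15145 genes, which does not decide whether they were paired. The fit with the replicate block called 119 antisense genes (78 and 41), or 25%, against 31.4% of all genes. It changed no call of the 23 named genes.

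The difference in peaks found again, -0.38 points, turned to 0.0395 with an overlap of at least 50%, to 1.22 with the −log10 p limit, was -9.14 without mirrored peaks, and lay between -0.946 and 0.449 when a library was left out. The difference in median length, 0.75 nt, turned to -4.5 nt without mirrored peaks. The mirrored share of antisense peaks, PTBP1 minus IGF2BP2, was -0.65 points, 7.97 with an overlap of at least 50%, 11.2 with the −log10 p limit, and between -1.32 and 0.0226 when a library was left out. With the same limit the intron share difference between proteins turned to -0.176 and the opposite-strand difference to 2.50 points. The mirrored, intron, enriched and opposite-strand shares of antisense against sense peaks kept their direction under each alternative run for them, though not their size: without mirrored peaks the enriched difference was -1.31 and the opposite-strand difference 15.8 points, and with the −log10 p limit the intron difference was 13.6 points. The enriched difference was also -0.630 with the deposited values as they stand, -0.612 with a log2 of at least 2 and -0.520 in pairs with peaks of both genes in every library. Intron peaks alone were not among these alternatives, and there the enriched share was higher for antisense-named than for sense peaks in every library.

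Named genes whose difference changed sign did so with a −log10 p of at least 3 (HOXB-AS3 0.80, NUTM2B-AS1 -1.34, SPRY4-AS1 -1.40, MCM3AP-AS1 3.36, SBF2-AS1 -1.27), without mirrored peaks (HDAC2-AS2 -0.11, PXN-AS1 0.43, MCM3AP-AS1 0.22), without mirrored and opposite-strand peaks (HDAC2-AS2 -0.0387, PXN-AS1 0.68, MCM3AP-AS1 0.26, LAMA5-AS1 0.48) or with at least 10 IP reads (MCM3AP-AS1 2.47). Not all 23 named genes could be tested under these settings. With the −log10 p limit 3 calls were kept, 4 were lost and 5 changed sign. Without mirrored peaks 12 were kept, 4 lost and 3 changed sign. Leaving out opposite-strand peaks too kept 9, with 4 lost and 4 changed in sign. With at least 10 IP reads 8 were kept, 4 lost and 1 changed in sign. Of 23 named calls, 8 were lost without PTBP1 replicate 1 and 8 without PTBP1 replicate 2, of which 6 under both, and 3 and 2 without IGF2BP2 replicates 1 and 2. With nucleotides covered, 3 were lost: BCDIN3D-AS1, FER1L6-AS2 and MCM3AP-AS1 (limma adjusted p = 0.259 for MCM3AP-AS1). FTCD-AS1, FER1L6-AS2 and LHFPL3-AS2 lost the call when a library was left out (adjusted p between 0.0503 and 0.174). With no filter on peaks per gene 6 calls were lost, at limma adjusted p between 0.0534 and 0.0785. The cause was not tested. With 2 libraries per protein no share could pass a threshold, and the reads recovered cover counting error only.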
